A study of Mus musculus with 12 samples.

Results

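Among 6 mouse brain gliomas with intact Tlx, 2 tumours had higher signals than the other 4 for many, but not all, immune genes. They also had far higher signals for a scattered set of single probes, and this contrast is described here. The 6 arrays come from a series of 12, in which the other 6 tumours had lost Tlx (Nr2e1), a nuclear receptor that neural stem cells need for self-renewal. The pair is the tumours with title codes 5619 and 5622. It was chosen from measured values of these arrays, because interferon, antigen-presentation and microglial genes had been seen to be higher in it, so its differences from the other 4 are descriptions and carry no test. No knockout array entered the contrast itself, but all 12 arrays were normalized together. The probe that stands for a gene was also chosen by its mean over all 12. Apart from this, the 6 knockout arrays are used as tumours that the choice of the pair did not use.

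Every animal was C57BL/6 per the labels and carried floxed Tlx on both chromosomes. Each also carried a Nestin-driven Tva, the receptor for the avian retrovirus that starts tumours in this kind of model. The line includes an inducible Cre driven by the Nestin promoter, as the design text describes it. The intact animals are the littermates without Cre, so their floxed Tlx was never recombined, and the knockout animals are the littermates with Cre. Tamoxifen was given from 2.5 weeks after tumour initiation. The 12 genotype labels number the CreERT element upward from sample to sample, while the design text names a single line. Neither the meaning of a title code nor how far the line had been crossed to C57BL/6 was stated. Each array is 1 animal and 1 piece of tumour, so p-values measure the spread between animals.

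The pair was collected at 42 and 42 days of age, and the other 4 animals, replicates 1 to 4, at 38, 50, 51 and 46 days. The difference of -4.25 days (42 ± 0 against 46.2 ± 5.91 days, SD, n = 2 and n = 4) gave p = 0.467 in an exact permutation test, two-sided, in a design whose smallest possible p is 0.0667. Knockout animals were 48 to 79 days old. Median signal was 151 and 145 intensity units in the pair and 134.5 to 155 in the other 4 (exact permutation p = 0.8, n = 2 and n = 4), and 50.8% to 53.3% of the 45135 probes were detected on the 6 intact arrays (exact permutation p = 0.533). Both groups held both sexes: Xist, the transcript of the inactive X chromosome, read 9.12 in replicate 1 of the pair and 8.89 in replicate 2 of the other 4, and 4.20 to 4.72 in the remaining 4 intact tumours.

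Microglia and infiltrating macrophages are the main immune cells of a glioma. They carry Fc receptors, several of which signal through the shared chain Fcer1g, and they also make its relative Tyrobp, an adaptor. After interferon-gamma they load peptides on MHC class II molecules with the help of the invariant chain Cd74. Type I interferon acts on a response element in the promoters of antiviral genes such as Ifit3 and Isg15, and interferon-gamma additionally induces guanylate-binding proteins and immunity-related GTPases such as Igtp. A bead-array probe is a short oligonucleotide, and it can also read low where a sequence variant or another transcript end removes its target.

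The promoters of 3 interferon targets from the contrast are shown because the contrast turns partly on interferon targets and these windows hold the response element. Capitals mark matches to GAAANNGAAA or, on the other strand, TTTCNNTTTC, a loose form of the interferon response element in which N is any base, and overlapping matches are joined. The sequences are RefSeq's, assembly GRCm38.p6, 250 bases before to 50 after the gene start, in the direction of the gene. Ifit3 lies at chr19:34583279-34583578 on the plus strand with 2 matches, Isg15 at chr4:156200769-156201068 on the minus strand with 3, and Igtp at chr11:58199306-58199605 on the plus strand with 1.
Ifit3: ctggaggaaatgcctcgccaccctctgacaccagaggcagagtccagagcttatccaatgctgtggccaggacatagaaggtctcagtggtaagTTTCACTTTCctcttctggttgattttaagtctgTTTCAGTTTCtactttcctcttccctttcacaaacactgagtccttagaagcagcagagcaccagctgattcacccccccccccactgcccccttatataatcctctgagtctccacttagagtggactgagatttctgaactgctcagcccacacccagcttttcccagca
Isg15: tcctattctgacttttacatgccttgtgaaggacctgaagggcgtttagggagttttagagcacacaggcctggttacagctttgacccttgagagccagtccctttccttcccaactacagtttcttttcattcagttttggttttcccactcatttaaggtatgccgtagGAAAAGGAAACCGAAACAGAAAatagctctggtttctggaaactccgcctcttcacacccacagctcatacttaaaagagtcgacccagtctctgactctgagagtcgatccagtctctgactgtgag
Igtp: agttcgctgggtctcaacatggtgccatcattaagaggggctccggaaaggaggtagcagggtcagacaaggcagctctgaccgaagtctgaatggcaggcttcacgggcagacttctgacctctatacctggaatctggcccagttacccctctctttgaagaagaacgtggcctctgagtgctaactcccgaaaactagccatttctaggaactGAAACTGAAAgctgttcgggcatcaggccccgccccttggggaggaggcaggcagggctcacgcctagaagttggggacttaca

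Fcer1g had the widest difference of all genes tested. Its probe read 12.24 and 11.35 log2 units in the pair and 4.22, 4.28, 5.35 and 6.20 in the other 4 tumours, a difference of 6.78 (11.79 ± 0.63 against 5.01 ± 0.95, SD, n = 2 and n = 4). The groups were 5.15 log2 units apart at their nearest, and 2 of the other 4 arrays detected the probe. Tyrobp, the sister adaptor that the same cells use, read 9.72 and 8.65 in the pair and 8.28 to 8.60 in the other 4. Thus Tyrobp was well detected in tumours where the Fcer1g probe lay near the floor, and its difference was 0.79. The 6 knockout tumours read 10.41 to 12.15 for Fcer1g, with the pair.

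H2-Eb1, the beta chain of a class II molecule, read 10.21 and 8.04 in the pair and 4.38, 4.52, 4.55 and 4.79 in the other 4 (difference 4.57), where 1 array detected it. Cd74 read 11.59 and 9.17 against 7.67, 7.47, 8.53 and 8.11 (difference 2.43), and its other probes differed by 2.47 and 1.47. Both genes thus separated the groups, and in both the first tumour of the pair was clearly above the second. Ifit3, an interferon-induced RNA-binding protein, read 10.95 and 10.29 against 8.44, 8.95, 7.90 and 8.43 (difference 2.19), with 2.12 by its other probe. Trim62, an E3 ubiquitin ligase, read 8.13 and 8.17 against 6.39, 6.54, 6.39 and 6.09 (difference 1.80) by its only probe. The Trim62 values barely varied within either group, and all 6 knockout tumours, at 8.47 to 9.54, lay above the pair.

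**Figure D1:**
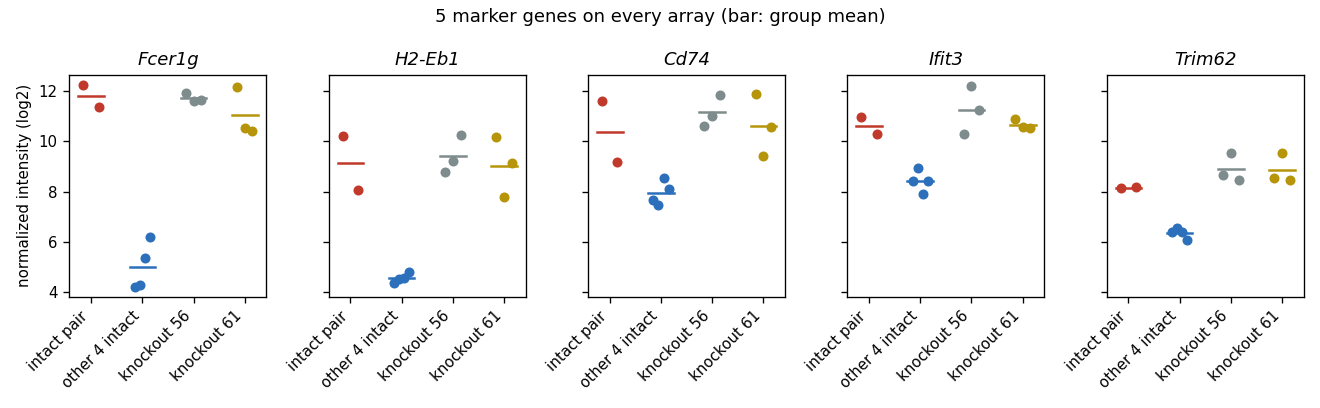
Normalized intensity (log2, y axis) of Fcer1g, H2-Eb1, Cd74, Ifit3 and Trim62 on each of the 12 arrays, with points for tumours and bars for group means; knockout tumours are split by whether their title code begins with 56 or 61. The other 4 intact tumours lie below all other tumours for every gene, with Fcer1g at 4.22 to 6.20 against 10.41 or more elsewhere.

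Over all 13709 genes tested, 421 were higher and 127 lower in the pair, counting genes whose groups do not overlap and whose means differ by at least 1 log2 unit, which is 2-fold. These are 3.07% and 0.926% of the genes, and they are the background for every count of list members below. The median difference of all genes was -0.01. With no fold threshold, 1392 genes lay wholly above and 1298 wholly below, so the excess on the higher side lies among the wide differences. Higher genes were 76.8% of the calls here and 88.1% (570 higher, 77 lower) when the arrays were scaled to 1 median instead of quantile normalized, which moved the median of all genes to 0.10. Of the 13709 genes, 125 passed the filter on dim probes through the pair alone, and 34 of these are among the 421. With a gene's probes averaged, which needs no choice of a probe, 371 genes were higher and 102 lower.

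**Figure D2:**
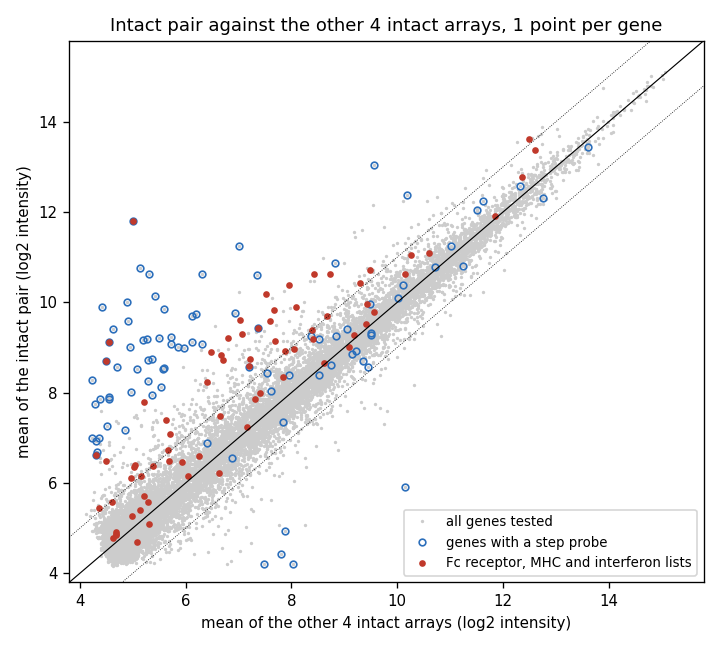
Mean log2 intensity of the intact pair (y axis) against that of the other 4 intact tumours (x axis) for all 13709 genes (grey), with genes that have a step probe as blue rings and genes of the Fc receptor, MHC and interferon lists as red points; dotted lines mark a difference of 1 log2 unit. The red points lie mostly above the diagonal at all intensities. Of the 88 ringed genes, 54 were called higher and 5 lower. The rest are drawn by a probe of the gene that is not its step probe.

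Some Fc receptor genes were higher in the pair, by unequal amounts. Of 11 measured genes of Fc receptors and Tyrobp signalling, 4 were called higher and 0 lower, with a median difference of 0.79. Without the fold threshold 7 lay wholly above and 0 wholly below, beside 10.2% and 9.47% of all genes. The inhibitory receptor Fcgr2b read 8.98 and 8.70 against 6.04 to 6.91 (difference 2.18), but 2 of its 3 other probes were at -0.27 and -0.20. Fcgr4, an activating receptor that needs Fcer1g at the cell surface, read 10.54 and 9.13 against 7.23 to 8.19 (2.17), and the high-affinity receptor Fcgr1 differed by 1.36. Fcgr3, which also pairs with Fcer1g, read 10.38 and 9.18 against 9.43 to 9.69, so the second tumour of the pair was below all of the other 4. The groups also overlapped for the lipid sensor Trem2 (difference 0.53). Laptm5, a lysosomal protein of blood-derived cells, read 13.71 and 13.04 against 12.42 to 12.79 (0.76).

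MHC class II genes were called higher in 5 of 11 measured members and lower in 0, with a median of 1.01. H2-Aa, the alpha chain of the other class II molecule, read 9.73 and 7.67 in the pair and was detected on 0 of the other 4 arrays, so it was at least 17.1-fold higher. Its partner H2-Ab1 read 11.31 and 9.08 against 7.12 to 7.90 (2.67), with 1.75 and 2.57 by its other probes, and H2-Oa, a regulator of peptide loading, differed by 1.15. Those other 4 tumours thus had well-detected H2-Ab1 and Cd74 beside H2-Aa and H2-Eb1 probes near the floor. The class II transactivator Ciita read 6.11 and 5.07 against 4.27 to 5.13, and the loading factor H2-DMa read 10.22 and 8.55 against 8.21 to 8.57, and for both the second tumour of the pair lay within the range of the other 4. H2-Ea, which C57BL/6 mice are known not to express, was detected on 0 of 12 arrays.

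MHC class I and peptide-loading genes were called higher in 4 of 15 and lower in 0, with a median of 0.90. The light chain B2m read 14.25 and 12.99 against 12.26 to 12.72 (1.13), and the peptide transporter subunit Tap1 differed by 1.32. Nlrc5, the class I transactivator, was detected on 0 of the other 4 arrays and was at least 3.62-fold higher in the pair. The heavy chain H2-D1 read 12.83 and 11.01 against 11.46 to 12.20, the pair thus spanning the other 4. Averaged over the list, the first tumour of the pair stood 1.28 above the mean of the 6 intact arrays and the second at -0.10, beside -0.02 in replicate 1 of the other 4, and without the first the list's median difference was 0.27. For class II the median was 0.39 without the first tumour of the pair and 1.84 without the second.

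Many interferon genes, but not all, were higher in both tumours of the pair. Of 9 sensors and regulators, 4 were called higher and 0 lower (median 0.99), of 18 antiviral effectors 10 and 0 (median 1.30), and of 10 interferon-gamma GTPases 6 and 0 (median 1.23). Usp18, which switches off the type I receptor, read 9.31 and 9.27 against 7.65, 7.26, 6.24 and 7.13 (2.22), with 1.90 by its other probe. Isg15, a ubiquitin-like antiviral protein, read 8.995 and 8.47 against 7.003, 6.86, 6.07 and 6.87 (2.03). Both tumours were thus above all 4, by 1.63 for Usp18 and 1.47 for Isg15. Irf7, an amplifier of type I interferon, was detected on 0 of the other 4 arrays and was at least 1.80-fold higher, and Irf9 differed by 1.03. Zbp1, a sensor of nucleic acids, lay the other way, at 6.33 and 6.14 against 6.45 to 6.84 (-0.40), with 0.27 by its other probe.

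Among the effectors, Bst2, which tethers virus particles, differed by 2.59, Ifi27l2a by 2.43 and Rsad2 by 1.54. Not all effectors separated: Ifit2, a neighbour of Ifit3 in the same family, read 8.96 and 9.08 against 8.30 to 9.51, and the RNA-dependent kinase Eif2ak2 differed by 0.11. The GTPases leaned on the first tumour of the pair, as class II did. Igtp read 10.86 and 8.38 against 6.59 to 7.48 (2.58), Irgm2 read 10.27 and 8.17 against 6.37 to 7.21 (2.43), and Gbp3 read 10.39 and 9.40 against 7.97 to 8.21 (1.81). Without that tumour the median of the GTPases was 0.57, and that of the effectors 0.95.

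The promoter motif was most frequent in these same lists. Of 27025 genes with a RefSeq promoter window, 3.99% held at least 1 match, and of the genes tested 428 of 11006 (3.89%). The share was 33 of 332 (9.94%) among genes called higher and 5 of 100 (5%) among genes called lower. It was 9 of 17 effectors (52.9%), 8 of 9 GTPases (88.9%) and 3 of 75 genes with a step probe (4%). These are shares of windows with matching letters, and the lists were chosen as interferon targets. Interferon genes were also used to choose the pair, so the share among genes called higher is a description and no check.

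Complement, chemokine and macrophage genes were called higher in part. The complement components C1qa, C1qb and C1qc differed by 1.12, 1.57 and 1.17, and were the 3 called of 9 complement genes (median 0.44). Of 15 chemokines and receptors 6 were called higher (median 1.13), among them the monocyte attractants Ccl12, at 9.22 and 8.73 against 6.26 to 7.32 (2.18), and Ccl7 (1.95). Cxcl9, an interferon-gamma target, read 8.36 and 5.22 against 4.46 to 5.39, so it was high in the first tumour of the pair alone. Of 15 macrophage and monocyte genes 5 were called higher (median 0.59), among them the lysozyme Lyz2 (1.69) and Plac8 (2.18). In none of these 3 lists was a gene called lower.

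Most microglial identity genes were not called. Of 11 measured, 3 were called higher and 0 lower (median 0.56). Fcrls, an Fc-receptor-like gene of mouse microglia, read 13.23 and 12.88 against 9.72, 8.96, 9.55 and 9.98 (3.50), with 4.33 and 2.19 by its other probes, and Olfml3 read 10.65 and 9.87 against 7.44 to 8.26 (2.40). The purinergic receptor P2ry12 read 10.02 and 10.32 against 9.87 to 10.35 and Tmem119 differed by 0.38. Averaged over the list, the pair stood at 0.91 and 0.34 and the other 4 between -0.38 and -0.27. In RNA from whole tissue, fewer cells of a type and less RNA per cell cannot be told apart.

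No gene of lymphocytes or neutrophils was called. The counts were 0 of 8 for T and NK cells, 0 of 4 for B and plasma cells and 0 of 9 for neutrophils, in both directions, and 8, 4 and 4 further members of these lists did not pass the filter on dim probes. The neutrophil calprotectin chain S100a8 read 6.88 and 6.84 in the pair and 7.08 in replicate 2 of the other 4. The T and NK list mean was 0.57 in the first tumour of the pair, -0.01 in the second and -0.38 to -0.03 in the other 4. The median differences were 0.43 for T and NK cells (6 of 8 above 0), 0.34 for B and plasma cells (3 of 4) and 0.07 for neutrophils (6 of 9). With 3.07% of all genes called higher, lists this short would seldom hold a called gene, so these counts say little about lymphocytes. Since interferon, class II and microglial genes were used to choose the pair, their values are no check of the name immune-high, and the groups are named here by their tumours.

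Some vessel-wall and cell-cycle genes were also called higher in the pair. Of 14 pericyte and matrix genes 3 were called higher (median 0.81), with the smooth-muscle actin Acta2 at 11.92 and 12.57 against 9.55 to 10.97 (2.14) and Col1a1 at 1.65. Of 16 endothelial genes 2 were called (median 0.47), Adgrl4 (1.63) and Vwf (1.05). Without the fold threshold, 10 of the 14 pericyte and matrix genes and 8 of the 16 endothelial genes lay wholly above. The share over all genes was 10.2%. Of 18 cell-cycle genes 5 were called higher (median 0.88), among them the spindle-checkpoint kinase Bub1b (1.83) and Plk1 (1.20), although replicate 1 of the other 4, with a list mean of 0.47, came close to the pair's 0.58 and 0.61. Whether these lists have a part in the immune differences was not tested.

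Neuron, glial and housekeeping lists held no called gene. With 3.07% of all genes called higher, these counts say little in lists this short. Of 13 neuron genes 0 were called and 10 were above 0, with a median of 0.54. That median was -0.02 without replicate 1 of the other 4, whose list mean of -1.80 was the lowest of the 6. No gene was called among 11 myelin, 14 progenitor and proneural, 13 astrocyte, 14 neural stem cell and 8 housekeeping genes, whose medians were -0.06, -0.04, -0.03, 0.17 and 0.07.

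**Figure D3:**
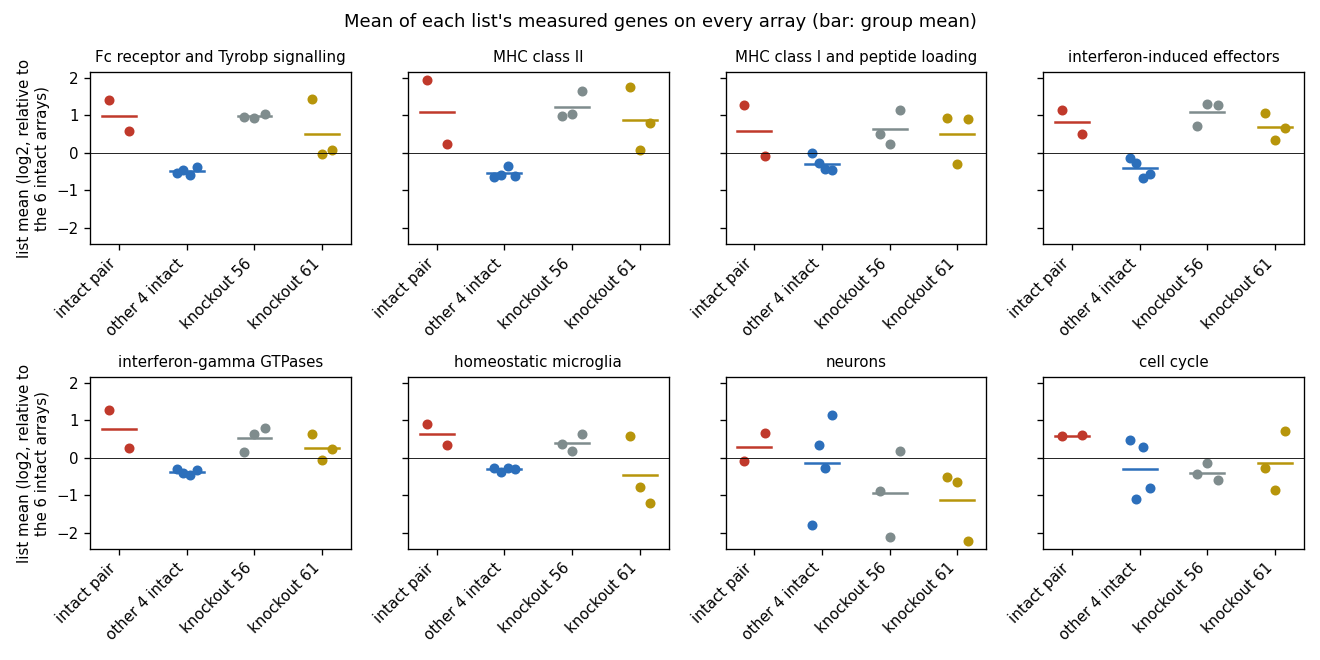
Mean over the measured genes of 8 lists (y axis, log2 relative to the mean of the 6 intact arrays) on each of the 12 arrays, with points for tumours and bars for group means. The pair lies above the other 4 for the Fc receptor, class II, effector, GTPase, microglia and cell-cycle lists, overlaps them for class I and neurons, and its first tumour is above its second for all but the neuron and cell-cycle lists.

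Many of the widest differences belonged to genes with no immune role and behaved like a switch. Sspn, a membrane protein of the dystrophin complex, read 9.97 and 9.82 in the pair and 4.16, 4.26, 4.29 and 4.95 in the other 4 (5.48). Csrp1, a LIM-domain protein, read 10.48 and 10.76 against 4.55 to 6.60 (5.30), and Cops8, a subunit of the COP9 signalosome, 9.99 and 10.04 against 4.27 to 5.70 (5.13). The tumours of the pair were close to each other for all 3 genes, unlike for the class II genes. The lysosomal protease gene Ctsc, of myeloid cells among others, differed by 5.63 and by 3.29 and 3.87 by its other probes. Further genes at the top were Lrrc57 (4.78), Dennd2a (4.73), Pdrg1 (4.68), Necap2 (4.32), Fgfr1op2 (4.25) and the pseudogene Pisd-ps3 (4.25), whose near-identical copies can share its probe.

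Genes lower in the pair were fewer, at 0.926% of all genes. Of the 10 immune and interferon lists 0 members were among them, which is near that share. The immune genes Ccl21a, Ccl21c and Il33, given below, were lower and belong to none of those lists. Gdpd3, a lipid phosphodiesterase, read 6.24 and 5.60 in the pair and 9.66, 10.43, 10.23 and 10.24 in the other 4 (-4.22). Cptp, a ceramide-phosphate transfer protein, was detected on all 4 and neither array of the pair, at least 10.8-fold lower in the pair, while its other probe was at 0.22. Ccl21a and Ccl21c, near-identical lymphoid chemokine genes that a probe may not tell apart, were at least 9.26-fold and 7.37-fold lower by the same measure. The somatostatin receptor gene Sstr1 was at least 5.27-fold lower, and Cuedc1 (-2.93), Gadd45gip1 (-2.68), Rerg (-2.21), the tRNA deaminase Adat2 (-2.15) and Aldh1a1 (-2.14), which makes retinoic acid, were the others with clear gaps. Il33, an alarmin of glia, read 6.55 and 8.08 against 8.57 to 10.68, and the lower value of Hif3a rested on replicates 1 and 2 of the other 4, at 9.17 and 8.66 beside 4.89 and 4.71.

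To describe the switch-like signals by probe, a step probe was defined after seeing the data as one for which the lowest array of one group lies at least 2 log2 units above the highest array of the other. Of all 45135 probes, 99 were step probes with the pair higher (0.219%) and 9 with the pair lower (0.0199%). The values just inside and outside this limit were gaps of 2.001 and 1.986. The 108 probes include 94 with a gene name, for 88 genes, of which 54 are among the 421 genes called higher and 5 among the 127 called lower. The rest have another probe as their gene's representative.

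Other probes of the same gene often did not share the step. Of the 88 genes, 55 had more than 1 detected probe. In 33 of these 55 another probe differed by less than 0.5 log2 units, and in 12 all probes differed by at least 1 in the same direction. The DNA repair nuclease gene Ercc5 read 9.76 and 9.66 against 4.40 to 5.29 by its step probe (4.89) and differed by -0.30 by its other probe. Mcm6, a replication helicase subunit, was at 4.64 by its step probe and at 1.07, 0.89 and -0.44 by the others, and Ndufb10, a subunit of respiratory complex I, was at 3.71 and -1.37. Sparc, a matrix glycoprotein, was at 3.52 by its step probe and at 0.15 and 0.26 by 2 others.

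The 12 genes whose probes agreed include several of myeloid cells. Ctsc, Fcrls, the beta-glucan receptor gene Clec7a and the class I-like gene H2-T23 were among them, as was Cd52, a surface glycoprotein of leukocytes, at 3.54 and 2.04. The others were Cd200, Cfap69, Nnmt, Pif1, Rpl29 and Wdr46, and Ccl21c, which was lower in the pair. Agreement between probes thus did not set the immune genes apart among the step genes. Over all calls, 13 of the 22 immune and interferon genes with another detected probe (59.1%) had all other probes at 1 log2 unit or more in the same direction. The same held for 29 of 156 other genes called higher (18.6%) and 9 of 52 genes called lower (17.3%). The median of the other probes, signed toward the call, was 1.11, 0.47 and 0.54 in these 3 sets. Since immune and interferon genes were used to choose the pair, these shares are a description. They are no check of which differences are real.

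**Figure D4:**
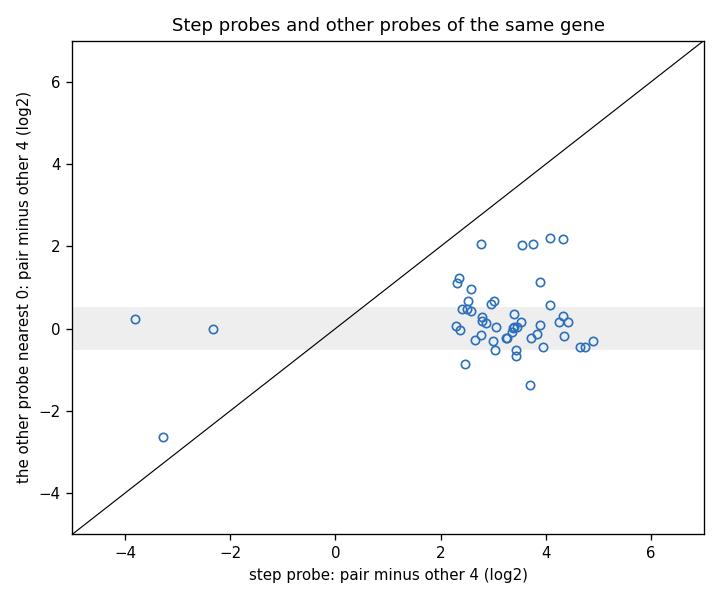
Difference between the pair and the other 4 (log2) for the step probe of a gene (x axis) against the same difference for that probe of the gene, among its other detected probes, that is nearest 0 (y axis), for the 52 genes that have one. The grey band marks 0.5 log2 units either side of 0 and holds 33 genes, and the diagonal marks equal differences.

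Some step genes lay close together on a chromosome, and as a whole the 88 genes lay on many autosomes, with 12 on chromosome 4, 11 on chromosome 9, 10 on chromosome 6 and 9 on chromosome 1, and 0 on X or Y. The number of tested genes per chromosome was not set beside these counts. Of 87 that could be ordered, 18 (20.7%) had another step gene within 5 tested genes. Among the other genes called higher, 116 of 365 (31.8%) had another of their own set as near, in a larger set. Whether step genes lie closer together than other genes was not tested. The 18 step genes include the neighbours H2-Aa and H2-Eb1 on chromosome 17 and Cspg5 and Smarcc1 on chromosome 9. Obi1 and Rbm26 on chromosome 14, and Rusc2, Tesk1 and Cd72 on chromosome 4, are also among them.

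The knockout tumours, which the choice of the pair did not use, read with the pair at nearly all step probes. Taking the middle of each gap as the border, 99 to 106 of the 108 probes lay on the pair's side in each knockout tumour (91.7% to 98.1%), and for 90 probes all 6 did. Of the 99 probes higher in the pair, 94 were detected on all 6 knockout arrays, beside 38.8% of all probes. That share is no like baseline, since the definition of a step makes these probes bright in the pair, while all probes include dim ones. Thus 4 of the 12 tumours stand apart at these probes, all of them intact. The other 8, pair and knockout, are the tumours whose title codes begin with 56 or 61. What sets the 4 tumours apart was not tested.

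**Figure D5:**
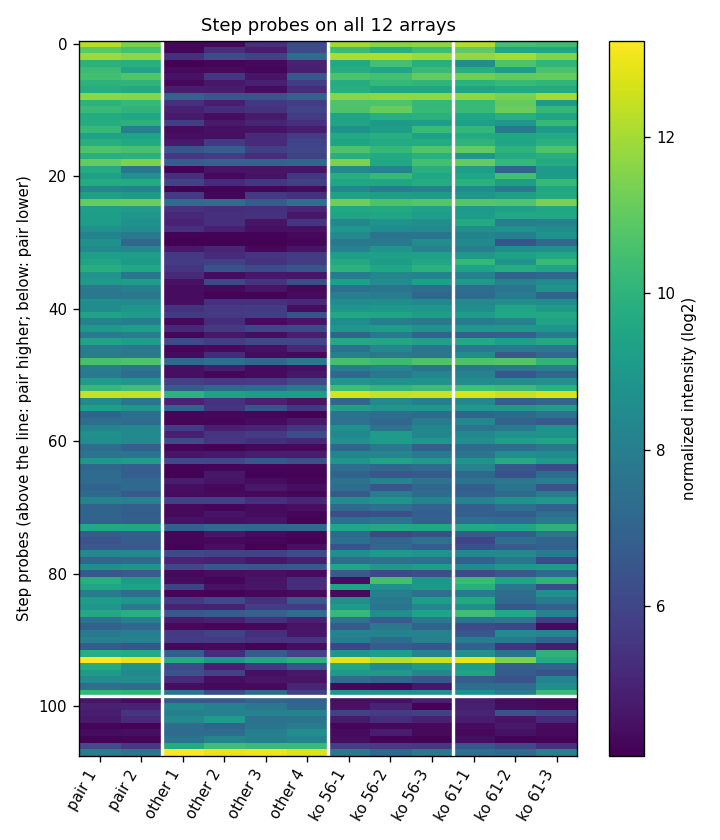
Normalized intensity (log2, colour) of the 108 step probes (rows, the 99 with the pair higher above the horizontal white line and the 9 with the pair lower below it) on the 12 arrays (columns), in the order pair, other 4 intact, knockout with codes 56 and knockout with codes 61. The other 4 intact tumours form a block that is darker than the pair above the line and lighter below it, and 99 to 106 of the probes in each knockout tumour match the pair.

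The exceptions among the 18 remaining probes were of different kinds. Lrrc57 and Aqr, both on chromosome 2, read 4.39 and 4.31 in replicate 1 of the knockout tumours with codes 56, as low as the other 4 intact tumours, and 8.90 to 10.55 and 7.31 to 8.67 in the remaining 5. A probe of 1700123O20Rik on chromosome 14, named after its values were seen, read 4.26 to 4.68 in all 3 knockout tumours with codes 56 and 7.35 to 8.57 in all 3 with codes 61. These single probes were near the floor in some knockout tumours and high in others. Other probes were graded, among them immune ones. Fcrls read 12.21 to 12.92 in 4 knockout tumours and 11.42 and 9.73 in replicates 2 and 3 of codes 61. Cd72, a B-cell and macrophage surface protein, read 8.31 to 9.37 in the former and 6.72 and 6.35 in the latter. The proliferation genes Kif23, Pif1 and Pclaf were graded too, with Kif23 at 7.96 to 10.29. So were probes of Tpm4 (6.91 to 8.06), Igsf11 (7.21 to 9.65) and Myt1l (5.75 to 7.75). Graded values thus did not set the immune probes apart.

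Detection calls alone gave a weaker picture of on and off signals. A total of 325 probes were detected on both arrays of the pair and none of the other 4 (0.72%), and 121 on all of the other 4 and neither of the pair (0.268%). Of the 325, 273 had a gap under 1 log2 unit and 24 were step probes. All 6 knockout arrays detected 61 of them (18.8%), beside 38.8% of all probes. Of the 121, 107 had a gap under 1 and 4 were step probes. Most of these calls thus lie at the detection limit.

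Position in the deposited table moved with the groups in part. The pair holds columns 8 and 7 and replicates 2, 3 and 4 of the other 4 hold columns 9, 10 and 11. Replicate 1 of the other 4 is column 6, and the knockout tumours hold columns 1 to 5 and 12. Replicate 1 read with replicates 2 to 4 at all 108 step probes, as the definition of a step requires, although its minimum signal of 66 was below the 88.9 to 99.2 of those 3. Within columns 7 to 12 alone, which hold both tumours of the pair and 3 of the other 4, 491 genes were higher and 142 lower. These are the same arrays as with replicate 1 left out, so this is no separate check of position. The meaning of the column order was not stated.

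Of 11 measured genes known to differ between inbred mouse strains, 1 was called higher and 1 lower. Without the fold threshold, 2 lay wholly above and 3 wholly below, beside 10.2% and 9.47% of all genes. Strain differences can go either way, so the list's median of -0.19 says nothing about them. Tmem181a, on chromosome 17, read 11.64 and 11.72 in the pair, 10.03 to 10.50 in the other 4 and 10.97 to 11.94 in the knockout tumours, and Erdr1 read 10.71 and 10.73 against 11.40 to 13.16, with 6.36 to 10.18 in the knockout tumours. Alad read 10.98 and 10.67 against 11.15 to 11.84, and Glo1 11.80 and 11.96 against 11.97 to 12.17. Whether sequence variants under the probes differ between the tumours was not tested, since no genotype and no probe sequence was used.

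The knockout tumours also allow a test by title code that leaves the intact contrast aside. Those with codes beginning with 56, as in the pair, were compared with those beginning with 61. By limma, 0 of 12032 genes were higher and 0 lower at an adjusted p under 0.05 (0% and 0%), and 371 had an unadjusted p under 0.05, which is below the 5% of genes that would pass with no difference. With limma's array weights 1 gene was lower, as it was without replicate 3 of codes 61. The smallest adjusted p was 0.115, for Supt16, a histone chaperone subunit on chromosome 14, at 6.67 to 6.72 in codes 56 and 9.69 to 11.12 in codes 61 (difference -3.60, SE 0.36, n = 3 and n = 3). In the intact tumours Supt16 read 10.01 and 10.20 in the pair and 5.97 to 8.89 in the other 4. Psmb5, a proteasome subunit gene on the same chromosome, was at -1.70 (limma adjusted p = 0.9996), and in the other direction Fam183b was at 2.02 (limma adjusted p = 0.5905).

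Immune lists held no called member in that comparison either. The median difference, codes 56 minus 61, was 0.66 for Fc receptor genes, 0.40 for class II, 0.44 for interferon effectors and 0.90 for microglial genes, with 9 of 11, 9 of 11, 15 of 18 and 11 of 11 members above 0. These medians go with replicates 2 and 3 of codes 61, whose microglial list means were -0.78 and -1.22 against 0.17 to 0.63 in the other 4 knockout tumours. At step probes the same 2 tumours still had 100 and 99 of 108 on the pair's side.

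With the 88 step genes left out, an added description chosen after seeing the data, the medians of the immune lists were still above 0. They were 0.77 for Fc receptor genes (3 of 10 called), 0.97 for class II (3 of 9), 0.74 for class I (3 of 14), 1.07 for interferon effectors (9 of 17) and 0.52 for microglial genes (2 of 10), while the regulators and GTPases hold no step gene. The class II mean then no longer separated the groups, with the second tumour of the pair at -0.13 and replicate 3 of the other 4 at -0.10. For the interferon effectors the pair stood at 1.13 and 0.45 and the other 4 between -0.66 and -0.10.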

How the data were processed

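Total RNA of 12 gliomas was hybridised to Illumina bead arrays. The authors deposited a signal intensity per probe and array on a linear scale, without normalization between arrays per the file headers, and a detection p-value beside each, which the authors' software computed in a way not given in the sources used here. A second deposited table of processed intensity values served as an alternative. With R 4.3.3 and limma 3.58.1, the intensities of all 12 arrays were background-corrected from the detection p-values, quantile normalized and put on the log2 scale (neqc, offset 16). A probe was kept if detected (p under 0.05) on at least 2 of the 6 intact arrays, and a gene is its probe with the highest mean over 12 arrays. Of 45135 probes, 34772 had 1 gene symbol, 18 several and 10345 none, and 34694 were matched through Entrez identifiers. The pair was set against the other 4 without a test. The knockout tumours were compared by title code with limma, Benjamini-Hochberg adjusted, over genes detected on at least 3 of 6, and age and depth with exact permutation tests. Scripts were tested on simulated data. Where a group detected a probe on none of its arrays, a fold is a lower bound, from the bright group's mean against, on each dim array, the higher of the lowest detected signal and the probe's own.

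The members and lists were chosen with earlier results of these data known. The genes named are the 5 markers, the 12 with the widest difference in each direction among genes detected on every array of the higher group, up to 4 members of each of 28 lists with all measured members of some, and up to 6 genes a direction from the knockout comparison. Others, among them the step genes and list members beyond these, were named after their values were seen. The number of arrays limits the precision.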

Additional observations from a re-analysis of the deposited data

Results flagged for a closer look

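Among 59 sets of 4 values of the other intact tumours, 5 held a tumour that stood apart from the remaining 3 by Dixon's test, and chance flags about 1 in 20. Replicate 3 read highest for the mean of the MHC class II list, at -0.34 against -0.634 to -0.594, relative to the mean of the 6 intact arrays. The same replicate read lowest for the pericyte and matrix list, at -0.743 against -0.164 to -0.115, and for the hypoxia and glycolysis list, at -0.152 against 0.026 to 0.05. Replicate 4 read 4.945 log2 units for Sspn against 4.157 to 4.29, and replicate 2 read 9.447 for Aldh1a1 against 8.638 to 8.766. None of these tumours crossed to the pair's side for Sspn, Aldh1a1, the class II list or the pericyte list.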

How the results depend on the processing

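All 73 recomputed differences of the 5 markers were above 0, and 63 stayed within the spread between replicates. Of 160 recomputed medians of 10 lists, 158 were above 0 and 130 stayed within that spread. Without background correction 164 genes were higher and 32 lower, and the authors' deposited values gave 168 and 32. Median scaling gave 77 lower, a threshold of 0.58 log2 gave 859 and 466, and no fold threshold 1392 and 1298. Without background correction the medians were 0.48 (Fc receptor), 0.38 (class II), 0.44 (interferon regulators), 0.80 (effectors), 0.64 (GTPases) and 0.15 (macrophages). With the authors' table they were 0.47 (Fc receptor), 0.46 (regulators), 0.81 (effectors), 0.64 (GTPases) and 0.14 (macrophages). Without a filter on dim probes effectors were at 0.77 and GTPases at 0.46, and over genes detected on all 6 arrays effectors, GTPases and macrophages were at 1.83, 1.78 and 1.18. With a gene's probes averaged, macrophages were at 0.37. The neuron median was -0.0222 within columns 7 to 12, which leaves out replicate 1 of the other 4. That setting is the same as leaving out this tumour, so its values enter the totals above under both names. A step gap of 1, 1.5 or 3 log2 units, chosen after seeing the data, gave 287, 157 and 42 probes higher and 57, 30 and 3 lower. Array weights gave 1 lower gene between the knockout codes. A block by table position is no separate check there, since 1 of those 6 arrays lies alone in columns 7 to 12 and the block only leaves it out. The cause of these changes was not tested.

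Leaving out 1 tumour at a time gave 387 to 614 genes higher and 119 to 247 lower, the most without replicate 2 of the pair. The medians ranged from 0.42 to 1.24 (Fc receptor), 0.39 to 1.84 (class II), 0.27 to 1.76 (class I), 0.78 to 1.19 (regulators), 0.95 to 1.53 (effectors), 0.57 to 1.82 (GTPases), 0.29 to 0.94 (microglia), 0.35 to 0.65 (macrophages), -0.0222 to 1.06 (neurons) and 0.59 to 1.17 (cell cycle). The lowest value came without replicate 1 of the pair for the Fc receptor, class II, class I, effector, GTPase and microglial lists. The knockout comparison gave 0 to 1 genes lower. The age difference ranged from -7 to -2.67 days and that of median signal from -2.32 to 4.66, with -1.31 without replicate 1 of the pair and -2.32 without replicate 3 of the other 4. No paired analysis was possible because replicate numbers follow the order of deposition and pair no animals.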
